A study of Mus musculus with 16 samples.

Results

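The 9 peroxisome biogenesis factors Pex3, Pex5, Pex6, Pex7, Pex10, Pex13, Pex14, Pex16 and Pex19 were followed in mouse liver that lacked Nrf2, Atg7 or both. They were taken as a list of named genes among 28632 gene names on the array, of which 16674 could be tested, and all 9 could be. They were represented by 16 of the 41174 non-control probes, and 15 of those probes were kept. RNA was hybridised on 16 two-colour arrays in 8 dye-swapped experiments. Each experiment set one genotype against another and was counted as 1 replicate, which gave 2 experiments for each of 4 comparisons. The genotypes were wild type, Nrf2–/– (Nrf2 KO; Nrf2 is a transcription factor of antioxidant genes, encoded by Nfe2l2), Atg7F/F:Mx1-Cre (Atg7 cKO; Atg7 is needed to form autophagosomes) and Atg7F/F:Mx1-Cre:Nrf2-/- (the double knockout). The series' text says that both Cre genotypes and the controls received pIpC at the age of 8 weeks and that livers were taken 4 weeks later. It does not say whether the wild-type mice carried floxed alleles or Cre, and Nrf2–/– is not named apart from the controls. The Mx1 promoter answers to interferon, which pIpC induces, so Cre is not confined to hepatocytes. Whole liver was used, and in such samples fewer cells of a type and less RNA per cell cannot be told apart.

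Peroxisomes are organelles bounded by a single membrane that oxidise very long-chain fatty acids, make bile acid and ether lipid precursors and break down hydrogen peroxide. Peroxins build them: some insert the membrane proteins, others carry folded enzymes from the cytosol into the matrix, and a ubiquitin and ATPase system returns the import receptors to the cytosol. The liver is rich in peroxisomes, and autophagy of peroxisomes (pexophagy) is one of the routes by which they are removed there.

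Array probes of 3 factors are shown first. Pex16 had the largest difference of the 9 genes with loess, Pex5 is the import receptor for most matrix enzymes, and Pex6 is a factor that did not pass the test in any comparison. For Pex16 and Pex6 the probe is the one that stands for the gene, while for Pex5 it is the second, dimmer probe (median wild-type signal 72.3 against 438.8 for the probe that stands for the gene). They read, 5′ to 3′ and as deposited:
Pex16 probe A_52_P241732 (mm9 chr2:92219417-92219476, plus strand): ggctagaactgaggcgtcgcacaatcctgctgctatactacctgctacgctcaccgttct
Pex5 probe A_51_P483344 (mm9 chr6:124350172-124350231, minus strand): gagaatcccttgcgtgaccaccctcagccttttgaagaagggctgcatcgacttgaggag
Pex6 probe A_52_P656565 (mm9 chr17:46861840-46861899, plus strand): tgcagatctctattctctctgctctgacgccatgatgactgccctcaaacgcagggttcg
The transcripts named for them in the files are NM_145122, NM_008995 and NM_145488, and their place in exons was not analysed here.

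The promoter windows of RefSeq (GRCm38.p6), which run from 250 bases before to 50 bases after a transcription start, covered 8 of the 9 genes in 11 windows. Windows were searched on both strands for the core of the antioxidant response element, TGACNNNGC, the motif to which Nrf2 binds with small Maf proteins. One of the 11 windows held it, that of Pex7, with 2 matches that begin 72 and 15 bases before the start, both read on the strand opposite to the gene. Over all 32851 windows 12.4% held a match. The upstream stretch of Pex7 with both matches in capitals is:
Pex7 upstream (GRCm38.p6 chr10:19907675-19907766, minus strand): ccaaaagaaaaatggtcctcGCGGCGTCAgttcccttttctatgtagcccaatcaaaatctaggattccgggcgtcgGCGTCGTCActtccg
No member window held a DR1 element, the site of PPAR alpha with RXR, searched as AGGTCA repeated in the same direction with 1 base between (0.0396% of all windows), or the E-box CACGTG (7.15% of all windows), to which factors of the TFEB family bind. The 3 motifs were searched separately, and no match of one overlaps a match of another in the members' windows. A match describes letters in a window and shows no binding.

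The arrays were alike in signal. Median signals lay between 41.8 and 55.6 against backgrounds of 34.5 to 36.5, 43.4% to 57.2% of spots were well above background, and the number of arrays limits the precision. The labels held for the deleted genes in the comparisons with wild type: the representative Nfe2l2 probe read -3.79 and -3.97 (log2 knockout over wild type) in the Nrf2 KO experiments and -3.31 and -4.10 in the double knockout, and the representative Atg7 probe read -0.79 and -0.82 in Atg7 cKO, with a mean of -0.73 (SD 0.002, n = 2) where both genes were lost. A second Atg7 probe read -0.17 and 0.014 in Atg7 cKO. In the direct comparison of the double knockout with Atg7 cKO, the representative Nfe2l2 probe read -6.31 and -6.68. Atg7, which both partners should lack, read -0.025 in experiment 7 and 1.03 in experiment 8 on its representative probe. On the second Atg7 probe it read 0.82 and 0.21. Direct ratios carry the scanner's own scaling and the others a background correction with an added offset, so their sizes are not comparable. Experiments 1 to 3 and 4 to 6 differed in Xist, Ddx3y and Eif2s3y, with RNA as of males in the first set and of females in the second, so each comparison with wild type holds 1 experiment of either kind. Markers of the liver's cell types moved too. Of 7 hepatocyte markers 6 were called lower in Atg7 cKO and 5 in double knockout liver (adjusted p under 0.05 in limma, medians -1.41 and -0.95). Below 0 were 7 and 6 of them. All 8 macrophage markers were called higher in both (medians 1.62 and 1.87). Of all genes 16.2% were called lower and 23.2% higher in Atg7 cKO, and 15.9% and 21.2% in the double knockout. Summed signals of the hepatocyte markers were 57710 to 104500 in the 12 wild-type channels, 28440 to 53600 in the 4 Atg7 cKO channels and 34090 to 77120 in the 4 double knockout channels, and those of the macrophage markers were 4507 to 9435, 19430 to 36880 and 39600 to 55260. Other lists moved as well. In Atg7 cKO and the double knockout 5 and 5 of 7 stellate cell markers were called higher (medians 0.82 and 0.81). So were 2 and 3 of 4 neutrophil markers (0.43 and 1.24) and 2 and 2 of 5 cholangiocyte markers (0.17 and 0.079). Summed neutrophil signals were 395.4 to 574.2 in wild type, 654.6 to 1366 in Atg7 cKO and 2522 to 4961 in the double knockout. Those of stellate cells were 1433 to 1694, 3553 to 4064 and 3272 to 3683, and those of cholangiocytes 789.8 to 1058, 3482 to 3666 and 3812 to 4610. The cholangiocyte markers were uneven. Spp1 had the largest log2 ratios (2.55 with Atg7 lost, 2.78 with both genes lost), followed by Sox9 (0.579 and 0.488). Krt7 (0.057 and -0.051), Krt19 (0.122 and -0.026) and Epcam (0.165 and 0.079) lay near 0, so the sum does not describe each marker. Every tested marker of these lists was well above background in at least 4 of 24 channels, and their part in the results below was not tested.

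Loss of Nrf2 alone was the first question, and none of the 9 factors passed the test in Nrf2 KO (0 of 9 at an adjusted p under 0.05 in limma with Benjamini-Hochberg adjustment over all genes, and 0 of 9 at an unadjusted p under 0.05). Log2 ratios to wild type ran from -0.12 (Pex14) to 0.095 (Pex6), with a median of -0.057, and 6 of 9 were below 0. Over all genes 0.012% were called in this comparison, 2 genes in number, so the count of 0 is near the background. At an unadjusted p under 0.05 there were 616 of 16674 genes. The 95% intervals bound each change. For Pex16 the interval ran from -0.28 to 0.22, for Pex5 from -0.15 to 0.20 and for Pex14 from -0.27 to 0.035. Pex13 had the lowest bound, -0.33, and Pex7 the highest, 0.30.

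Within Nrf2 KO the factors scattered around 0 by experiment. Among those of membrane protein insertion, Pex3 read 0.03 and -0.16, Pex16 -0.11 and 0.044 and Pex19 -0.084 and -0.03 in experiments 1 and 4. Of the import receptors, Pex5 read 0.033 and 0.017 and Pex7 0.14 and -0.005. At the docking site Pex13 read 0.013 and -0.18 and Pex14 -0.18 and -0.048, and Pex14 alone was below 0 on 4 of 4 arrays. The recycling factors read 0.12 and 0.066 (Pex6) and -0.11 and -0.014 (Pex10). For 4 of the 9, Pex3, Pex7, Pex13 and Pex16, the experiments lay on either side of 0.

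Loss of Atg7 was followed by lower RNA of 3 of the 9 factors. Pex16, Pex5 and Pex14 fell in Atg7 cKO, none rose, and the median of the 9 was -0.21. Across all genes 39.4% were called in this comparison with 16.2% lower and 23.2% higher, so 3 of 9 lower stands against that share of genes in general. Over all genes the median was 0.003.

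Among the factors that place proteins in the peroxisomal membrane, Pex16, a membrane protein that recruits Pex3, fell most. It read -0.54 in experiment 2 and -0.80 in experiment 5, and every one of the 4 arrays lay between -0.91 and -0.41. The fitted log2 ratio was -0.67 (SE 0.098, adjusted p = 0.00579), or 62.9% of wild type, and 5.17% of all genes had a lower ratio. The second Pex16 probe gave -0.66 (adjusted p = 0.00326 over 23581 probes), so both probes of the gene fell alike. Pex3, the docking site of Pex19 on the membrane, read 0.16 and -0.065, and Pex19, the cytosolic chaperone of newly made membrane proteins, read 0.24 and -0.084. Both had 1 experiment on either side of 0 and did not pass the test (adjusted p = 0.664 and 0.513).

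The import receptors and their docking partners were split. Pex5, the receptor for enzymes with the carboxy-terminal targeting signal, read -0.24 and -0.48 and was below 0 on 4 of 4 arrays. It fell by 0.36 on the log2 scale (SE 0.068, adjusted p = 0.0127), and its second probe, whose sequence is printed above, gave -0.35 (adjusted p = 0.0058). Pex7, the receptor for the amino-terminal signal, read 0.002 and -0.25, with a mean of -0.13 that did not pass (adjusted p = 0.331). Pex14, the docking protein at the import pore, read -0.15 and -0.27 and fell by 0.21 (adjusted p = 0.0421). Its partner Pex13 read 0.16 and -0.13 on the probe that represents the gene, with a mean of 0.019 (adjusted p = 0.891).

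Pex13 was the gene whose probes disagreed. A second probe of the same transcript, downstream of the first on mm9, gave -0.40 (adjusted p = 0.0435) and another, named for the transcript AK037872, gave -0.36 (adjusted p = 0.00355), both over 23581 probes. These 2 dimmer probes were lower in Atg7 cKO where the brightest one was not, and the average of all 3 was -0.25 (adjusted p = 0.0604). Which probe reports the main transcript was not tested.

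In the recycling system, Pex6, an ATPase that pulls Pex5 out of the membrane, read -0.10 and -0.39, with a mean of -0.25 (adjusted p = 0.055). Pex10, a ubiquitin ligase that marks Pex5 for recycling, read -0.11 and -0.35, with a mean of -0.23 (adjusted p = 0.0532). The Pex10 probe was dim, with a median wild-type signal of 69.9 on a background of 36.5, and the offset added in background correction shrinks ratios of dim probes. With the scanner's processed signals, which carry no such offset, Pex10 read -0.69 (adjusted p = 0.0297) with Atg7 lost and -1.001 (adjusted p = 0.00943) with both genes lost.

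The 3 calls in Atg7 cKO depended on experiment 5, in which all 9 factors were below 0 (median -0.27) against 5 of 9 in experiment 2 (median -0.10). Without experiment 5 no factor passed (Pex16 -0.54, adjusted p = 0.0516; Pex5 -0.24, adjusted p = 0.0731; Pex14 -0.15, adjusted p = 0.263). Without experiment 2, Pex6 (-0.39, adjusted p = 0.0195) and Pex10 (-0.35, adjusted p = 0.0299) passed and Pex14 (-0.27, adjusted p = 0.0692) did not. Pex14 also missed the threshold without any other single experiment (adjusted p = 0.0647 without 1 or 4 and 0.0715 without 3 or 6) and with the slide as a block (-0.19, adjusted p = 0.129).

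**Figure D1:**
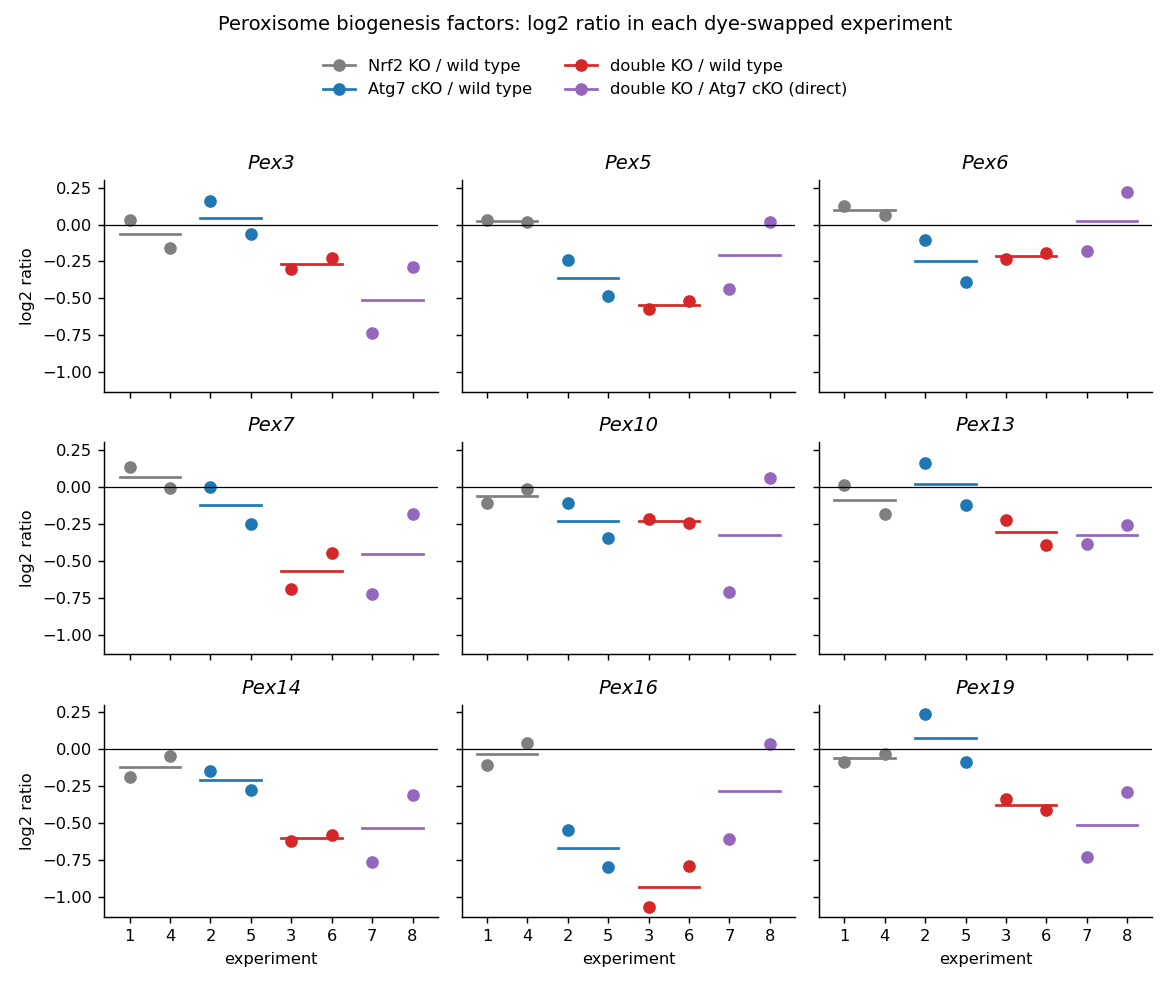
Log2 ratio of knockout over partner (y axis) of the representative probe of each of the 9 factors in each of the 8 dye-swapped experiments (x axis, grouped by comparison); points are experiments and short lines the mean of 2. The double knockout points lie below 0 in every panel, from -0.20 to -1.07, while the Nrf2 KO points lie between -0.18 and 0.14. Direct ratios of the double knockout over Atg7 cKO carry the scanner's own scaling and the others loess.

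With both genes lost, Pex16, Pex14, Pex7, Pex5 and Pex19 fell, 5 of 9 factors in all, none rose, and all 9 log2 ratios were below 0 in both experiments (median -0.37). In this comparison 15.9% of all genes were called lower and 37.1% were called in either direction. The remaining 4 had an unadjusted p under 0.05 and an adjusted p between 0.0502 and 0.0831. An unadjusted p under 0.05 was common in this comparison, with 7905 of 16674 genes.

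Pex16 again changed most, at -1.07 and -0.79, and fell by 0.93 (SE 0.098, adjusted p = 0.00242) to 52.5% of wild type. Pex19 read -0.33 and -0.41 and fell by 0.37 (adjusted p = 0.0226), although its ratio in Atg7 cKO was above 0. Pex3 read -0.30 and -0.23 (mean -0.26, adjusted p = 0.0502). All 3 factors of membrane protein insertion were thus below 0 in both experiments, and 2 of 3 passed. The second Pex3 probe, at -0.18, was called over probes (adjusted p = 0.0352), and the second Pex19 probe gave -0.36 (adjusted p = 0.0407).

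Both import receptors fell. Pex7 read -0.69 and -0.45 and fell by 0.57 (SE 0.093, adjusted p = 0.00821), to 67.3% of wild type. Pex5 read -0.57 and -0.52 and fell by 0.54 (SE 0.068, adjusted p = 0.0039), while its dimmer second probe gave -0.27 (adjusted p = 0.0133). With processed signals the second probe read -1.005 and -0.917, against -0.759 and -0.651 for the probe that stands for the gene. Which of the 2 Pex5 probes fell more therefore depends on the scaling. At the docking site Pex14 read -0.62 and -0.58 and fell by 0.60 (SE 0.059, adjusted p = 0.00209). Pex13 read -0.22 and -0.39 (mean -0.31, adjusted p = 0.0563), and here its other probes, at -0.40 and -0.16, had the same sign and were called over probes (adjusted p = 0.0469 and 0.0414).

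With loess the recycling factors had the ratios nearest to 0 of the 9. Pex6 read -0.23 and -0.20 (mean -0.22, adjusted p = 0.0831) and Pex10 read -0.22 and -0.24 (mean -0.23, adjusted p = 0.0554). With processed signals Pex10, at the -1.001 given above, was second only to Pex16 (-1.05), so its place among the 9 depends on the scaling. For Pex6 the mean in the double knockout was not lower than in Atg7 cKO, -0.22 against -0.25.

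Without experiment 3 the calls in the double knockout came down to 3 of 9 (Pex5, Pex14 and Pex16), since Pex7 (adjusted p = 0.0751) and Pex19 (adjusted p = 0.106) missed the threshold. Pex19 also missed it without experiment 6 (adjusted p = 0.156) and without experiment 1 or 4 (adjusted p = 0.0538). Without experiment 2, or without 5, more factors were called lower. These experiments hold no double knockout RNA, so the ratios stayed the same and only the estimate of the shared spread changed.

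**Figure D2:**
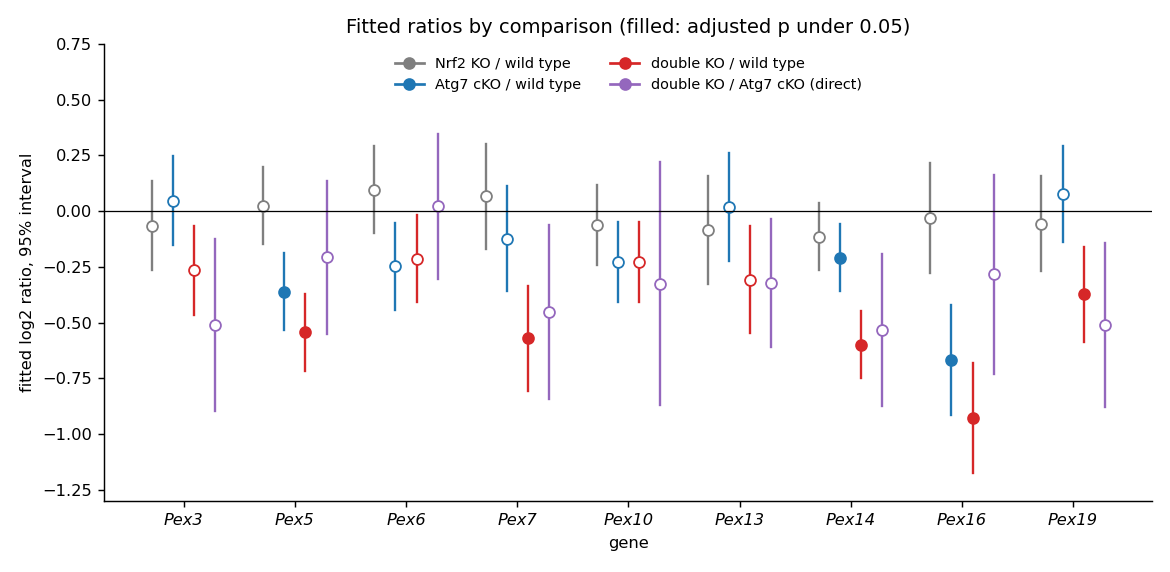
Fitted log2 ratio of each factor (y axis) with its 95% interval (vertical line) in the 4 comparisons (colours); filled points have an adjusted p under 0.05 in limma. Filled points appear only for Atg7 cKO (3) and the double knockout (5) against wild type, with Pex16 lowest at -0.67 and -0.93. The direct comparison carries the scanner's own scaling and the others loess.

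The zero of these ratios depends on how the arrays were scaled. Loess normalisation sets the middle of all spots of a given brightness to 0. Centring each array on its median instead moved the median of all tested genes to 0.21 (Atg7 cKO) or 0.14 (double knockout), and called genes were then mostly higher (9.29% and 14.3% of calls were lower, against 41.1% and 42.8% with loess and 51.3% and 53.4% with the scanner's processed signals). On that scale Pex5 read 0.095 (adjusted p = 0.52) and Pex14 0.24 (adjusted p = 0.0446) in Atg7 cKO, so that both turned their sign, Pex3 (0.42, adjusted p = 0.033) and Pex19 (0.51, adjusted p = 0.0128) were called higher, and Pex16 was not called (-0.22, adjusted p = 0.157). Taken relative to the median of all genes, Pex16 stood at -0.43 and Pex5 at -0.11, and 4 of the 9 factors lay below that median in Atg7 cKO, against 6 with loess and 7 with processed signals. In the double knockout all 9 lay below the median of all genes under each of the 3 scalings, by -0.79 (Pex16) to -0.069 (Pex6) with median centring, where Pex16 (-0.65, adjusted p = 0.00931) and Pex14 (-0.30, adjusted p = 0.0306) stayed called.

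**Figure D3:**
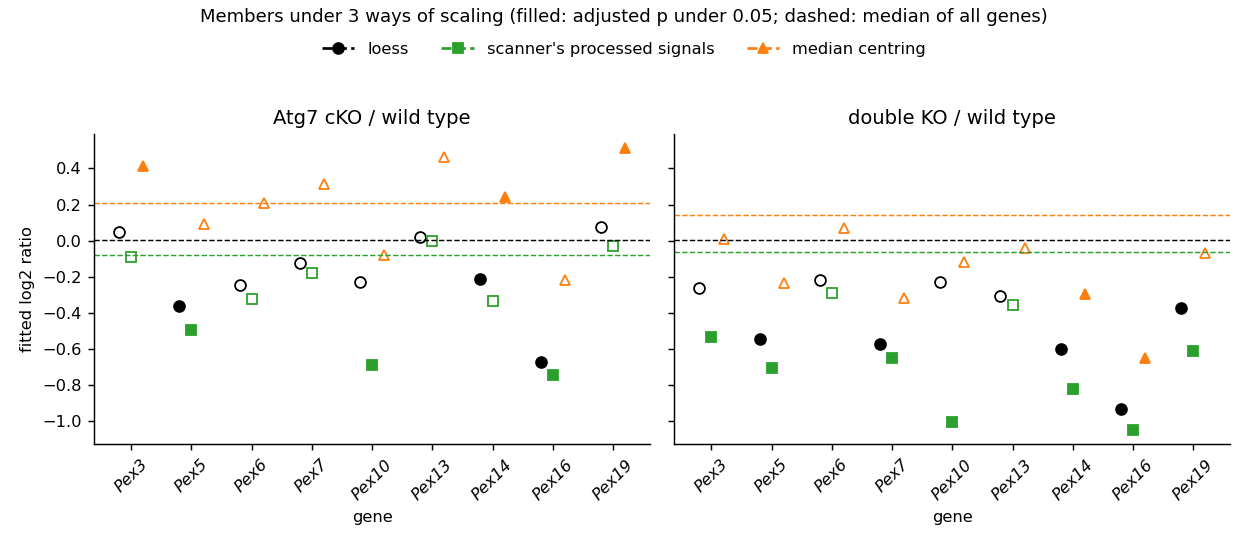
Fitted log2 ratio of each factor to wild type (y axis) in Atg7 cKO (left) and the double knockout (right) under 3 ways of scaling; dashed lines are the median of all tested genes and filled symbols have an adjusted p under 0.05. Median centring gives each factor a higher ratio than loess does, and in Atg7 cKO it puts Pex14 at 0.24 where loess has -0.21.

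Whether the loss of Nrf2 altered the factors in autophagy-deficient liver was asked by hybridising the double knockout directly against Atg7 cKO. None of the 9 was called (0 of 9, against 14.8% of all genes, 8.07% lower and 6.72% higher), although 8 of 9 fitted ratios were below 0, with a median of -0.33. An unadjusted p under 0.05 was found for 5 of 9, against 5625 of 16674 genes. Ratios in this comparison come from the deposited value table and so carry the scanner's own scaling.

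The experiments of this comparison differed from each other. In experiment 7 all 9 factors were below 0, from -0.18 to -0.76 with a median of -0.71, whereas in experiment 8 they ran from -0.31 to 0.22 with a median of -0.19 and 5 of 9 were below 0. Pex14 read -0.76 and -0.31 (mean -0.53, 95% interval -0.87 to -0.19, adjusted p = 0.0543). Pex19 read -0.73 and -0.29 (mean -0.51, adjusted p = 0.0719) and Pex3 -0.73 and -0.29 (mean -0.51, adjusted p = 0.0811). These 3, with Pex7 (-0.72 and -0.19, mean -0.45, adjusted p = 0.109) and Pex13 (-0.39 and -0.26, mean -0.32, adjusted p = 0.115), had both experiments and all 4 arrays below 0. For Pex13 this is the probe that stands for the gene. Its other probes read -0.80 and -0.008 (mean -0.40) and, for the transcript AK037872, 0.365 and 0.171 (mean 0.27, adjusted p = 0.127 over 23581 probes), so its direction differed between probes. Pex16 read -0.60 and 0.035, Pex5 -0.43 and 0.017, Pex10 -0.71 and 0.06 and Pex6 -0.18 and 0.22, with 1 experiment on either side of 0. Of the 3 factors called lower in Atg7 cKO, Pex16 and Pex5 were thus split here, while Pex14 was below 0 in both experiments. The 95% intervals of Pex16 and Pex5, such as -0.73 to 0.16 for Pex16, hold both no difference and a sizeable fall.

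Marker lists moved between these experiments as well. Hepatocyte markers had a median of 0.20 in experiment 7 and 0.76 in experiment 8, macrophage markers of 0.72 and -0.078, endothelial markers of -0.80 and -0.031 and neutrophil markers of 2.38 and 0.92. Their part in the gap between the experiments was not tested.

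The same question can be asked of the comparisons with wild type. Through wild type, none of the 9 factors differed between the double knockout and Atg7 cKO (0 of 9, against 4.96% of all genes, 3.21% lower and 1.75% higher), and Pex14 came nearest at -0.39 (adjusted p = 0.071). The interaction, the double knockout ratio less the sum of the Atg7 cKO and Nrf2 KO ratios, was called for none of them (0 of 9, against 0.72% of all genes, 120 in number, and 0.588% lower). At an unadjusted p under 0.05 there were 3 of 9, against 2413 of 16674 genes: Pex7 (-0.51, adjusted p = 0.257), Pex19 (-0.39, adjusted p = 0.323) and Pex14 (-0.27, adjusted p = 0.325). A factor that passed in the double knockout and not in Atg7 cKO, such as Pex7 or Pex19, is therefore not shown to differ between them.

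Of the other peroxins, 5 genes on the array were followed, of which 4 could be tested and Pex5l could not. In Atg7 cKO 3 of 4 fell and 1 rose, with a median of -0.41, and in the double knockout 3 of 4 fell and none rose, with a median of -0.39. Of all genes 16.2% were called lower and 23.2% higher in Atg7 cKO, and 15.9% and 21.2% in the double knockout. Pex2, a RING partner of Pex10, fell by 0.46 in Atg7 cKO (adjusted p = 0.0201) and fell by 0.40 in the double knockout (adjusted p = 0.0325). Pex26, which anchors the ATPase complex of Pex6 to the membrane, fell by 0.35 (adjusted p = 0.0136) and fell by 0.37 (adjusted p = 0.0116). With median centring none of the 4 was called lower and 1 higher in Atg7 cKO, and 1 lower and 1 higher in the double knockout. Without experiment 5 the 3 lower calls in Atg7 cKO came down to 1, as Pex2 (adjusted p = 0.152) and Pex26 (adjusted p = 0.111) missed the threshold. Without experiment 3, or without 6, the 3 lower calls in the double knockout came down to 1, since Pex2 (adjusted p = 0.169 and 0.161) and Pex26 (adjusted p = 0.0954 and 0.0743) missed it. Pex26 also missed it in Atg7 cKO with the slide as a block (-0.32, adjusted p = 0.056).

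Pex11a and Pex11g, whose products take part in growth and division of peroxisomes, went separate ways in Atg7 cKO. Pex11a, the form known as inducible by peroxisome proliferators, rose in Atg7 cKO, with 1.14 and 1.05 in its experiments (mean 1.09, SE 0.067, adjusted p = 8.53e-04). In the double knockout it read 0.076 and 0.23 (mean 0.15, adjusted p = 0.132), and with median centring it was called higher there (0.34, adjusted p = 0.0342). In the direct comparison it read -1.08 and -0.88 and fell by 0.98 (adjusted p = 0.00537); without experiment 7 the value was -0.88 (adjusted p = 0.0678). Through wild type it fell by 0.94 (adjusted p = 0.0138), and its interaction was -0.81 (adjusted p = 0.0638). Pex11g fell instead, by 0.83 in Atg7 cKO (adjusted p = 0.00268) and fell by 0.75 in the double knockout (adjusted p = 0.00356), with a direct ratio of 0.022 (adjusted p = 0.944).

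Genes for enzymes, carriers and fission proteins linked to peroxisomes were described in 3 lists. Which of their products these factors import or insert was not examined. The counts stand beside 16.2% lower and 23.2% higher of all genes in Atg7 cKO and 15.9% and 21.2% in the double knockout. Of 16 genes of peroxisomal beta-oxidation, 4 fell and 1 rose in Atg7 cKO (median -0.25) and 11 fell and none rose in the double knockout (median -0.57). Ech1, an enoyl-CoA isomerase, fell by 0.84 (adjusted p = 0.00613) and fell by 0.94 (adjusted p = 0.00452). Scp2, a thiolase and sterol carrier, fell by 1.14 (adjusted p = 0.0173) in Atg7 cKO and read -1.08 and -0.059 in the double knockout (mean -0.57, adjusted p = 0.122). Crot, which exports shortened chains as carnitine esters, fell by 0.67 (adjusted p = 0.00304) and fell by 0.49 (adjusted p = 0.00769). Without experiment 5 the lower calls in Atg7 cKO came down to 2 and without experiment 3 those in the double knockout to 4. With median centring the list had 0 lower and 4 higher calls in Atg7 cKO and 3 lower and 1 higher in the double knockout, so that the balance in Atg7 cKO turned over. On that scale Crot was called neither in Atg7 cKO (-0.25, adjusted p = 0.193) nor in the double knockout (-0.31, adjusted p = 0.14). Ech1 was not called there in Atg7 cKO (-0.40, adjusted p = 0.0536). Scp2 missed the threshold in Atg7 cKO without experiment 2 (adjusted p = 0.112) or 5 (adjusted p = 0.0775) and with median centring (-0.76, adjusted p = 0.0659). In the double knockout it was called lower without experiment 6 (-1.08, adjusted p = 0.012) and with the slide as a block (-0.60, adjusted p = 0.0333). Crot missed it in the double knockout without experiment 3 (adjusted p = 0.0536). Ehhadh, the bifunctional enzyme of the chain, rose by 0.58 in Atg7 cKO (adjusted p = 0.0264) and fell by 0.65 in the double knockout (adjusted p = 0.0199). It fell by 1.18 in the direct comparison (adjusted p = 0.0118), and its interaction, -1.68, did not pass (adjusted p = 0.0665). With median centring Ehhadh was not called in the double knockout (-0.42, adjusted p = 0.152). It missed the threshold in Atg7 cKO without experiment 2 (0.28, adjusted p = 0.057) and without 1 or 4 (adjusted p = 0.0585), in the double knockout without experiment 3 (adjusted p = 0.112) or 6 (adjusted p = 0.129) and in the direct comparison without experiment 7 (-0.97, adjusted p = 0.118).

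Of 28 tested genes for other matrix enzymes, 13 fell and 2 rose in Atg7 cKO (median -0.51), and 21 fell and 2 rose in the double knockout (median -0.80). Hacl1, the lyase of alpha-oxidation, fell by 2.17 (adjusted p = 0.00111) and fell by 2.45 (adjusted p = 8.3e-04). Agxt, which detoxifies glyoxylate, fell by 1.61 (adjusted p = 0.00139) and fell by 0.81 (adjusted p = 0.00801), and in Atg7 cKO Pipox read -1.58 (adjusted p = 0.00432) and Nudt7 -1.92 (adjusted p = 0.018). Cat, the catalase that breaks down hydrogen peroxide, read -0.43 and -0.57 in Atg7 cKO (mean -0.50, adjusted p = 0.0824) and -2.52 and -1.77 in the double knockout (mean -2.14, adjusted p = 0.00138). In Atg7 cKO Cat was called lower with the slide as a block (-0.67, adjusted p = 0.0276) and without experiment 3 or 6 (-0.50, adjusted p = 0.0149). In the direct comparison Cat fell by 1.70 (adjusted p = 0.0125), but without experiment 7 the value was -1.25 (adjusted p = 0.104). The lower calls of this list came to 8 without experiment 5 in Atg7 cKO and 13 without experiment 3 in the double knockout. With median centring there were 8 lower and 7 higher calls in Atg7 cKO and 13 lower and 2 higher in the double knockout. Nudt7 missed the threshold in Atg7 cKO without experiment 2 (adjusted p = 0.12) or 5 (adjusted p = 0.0712), and Agxt missed it in the double knockout without experiment 3 (-0.66, adjusted p = 0.0756).

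Of 15 genes for membrane, transport and fission proteins, 4 fell and 4 rose in Atg7 cKO (median -0.091) and 8 fell and 1 rose in the double knockout (median -0.61). Acsl1, a long-chain acyl-CoA synthetase, fell by 2.27 (adjusted p = 0.00128) and fell by 2.39 (adjusted p = 0.00106), and Abcd3, a carrier of fatty acyl-CoA into the organelle, fell by 1.40 (adjusted p = 0.0033) and fell by 1.58 (adjusted p = 0.00251). Pxmp2, a channel protein, and Slc27a2, a very long-chain acyl-CoA synthetase, read -1.39 (adjusted p = 0.00446) and -0.99 (adjusted p = 0.0102) in Atg7 cKO. Without experiment 5 the list had 3 lower and 1 higher call in Atg7 cKO, and without experiment 3 it had 5 lower calls in the double knockout. With median centring it had 3 lower and 5 higher calls in Atg7 cKO and 5 lower and 3 higher in the double knockout, and with processed signals 4 lower and 1 higher in Atg7 cKO and 8 lower and none higher in the double knockout. Slc27a2 missed the threshold without experiment 5 (-0.77, adjusted p = 0.088).

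Of 6 regulators of peroxisome number, 3 fell in Atg7 cKO: Rxra (-0.68, adjusted p = 0.00651), Ppara (-0.67, adjusted p = 0.0155) and Hnf4a (-0.47, adjusted p = 0.0156). These encode a nuclear receptor partner, the receptor activated by fatty acids and a hepatocyte transcription factor. In the double knockout 2 fell and 1 rose, and Ppara fell by 0.60 (adjusted p = 0.0217). Of all genes 16.2% were called lower in Atg7 cKO, and 15.9% lower and 21.2% higher in the double knockout. The 1 higher call among 6 regulators is near that last share. Without experiment 5 only 1 of the 3 lower calls in Atg7 cKO was left, as Ppara (adjusted p = 0.112) and Hnf4a (adjusted p = 0.086) missed the threshold, and without experiment 3 Ppara missed it in the double knockout (-0.36, adjusted p = 0.134). None of these 3 was called in Atg7 cKO with median centring, where Ppara read -0.21 (adjusted p = 0.182) and 1 other regulator of the 6 was higher. On that scale the double knockout had 0 lower and 2 higher calls (Ppara -0.32, adjusted p = 0.08), and Ppara also missed the threshold there with the slide as a block (-0.64, adjusted p = 0.054).

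Of 9 genes of pexophagy and Pex5 recycling, 1 rose with Atg7 lost and 2 rose with both genes lost, where 23.2% and 21.2% of all genes were called higher, so that both counts lie near or below that background. With median centring 4 and 2 were higher, and with processed signals 1 and 2 were higher and 1 and 3 lower. Sqstm1, the autophagy receptor p62, read 1.49 and 1.31 in Atg7 cKO (mean 1.40, adjusted p = 7.61e-04) and 0.63 and 0.39 in the double knockout (mean 0.51, adjusted p = 0.00716), and fell by 0.99 in the direct comparison (adjusted p = 0.00881). The last of these missed the threshold without experiment 7 (adjusted p = 0.0755) or 8 (adjusted p = 0.0566), as did the value in the double knockout without experiment 3 (0.39, adjusted p = 0.0628). Nbr1, the receptor best known for peroxisomes, read 0.10 in both (adjusted p = 0.162 and 0.172). With median centring it was called higher in Atg7 cKO (0.53, adjusted p = 0.0113), and the mean of its probes was -0.046 (adjusted p = 0.477) in the double knockout.

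**Figure D4:**
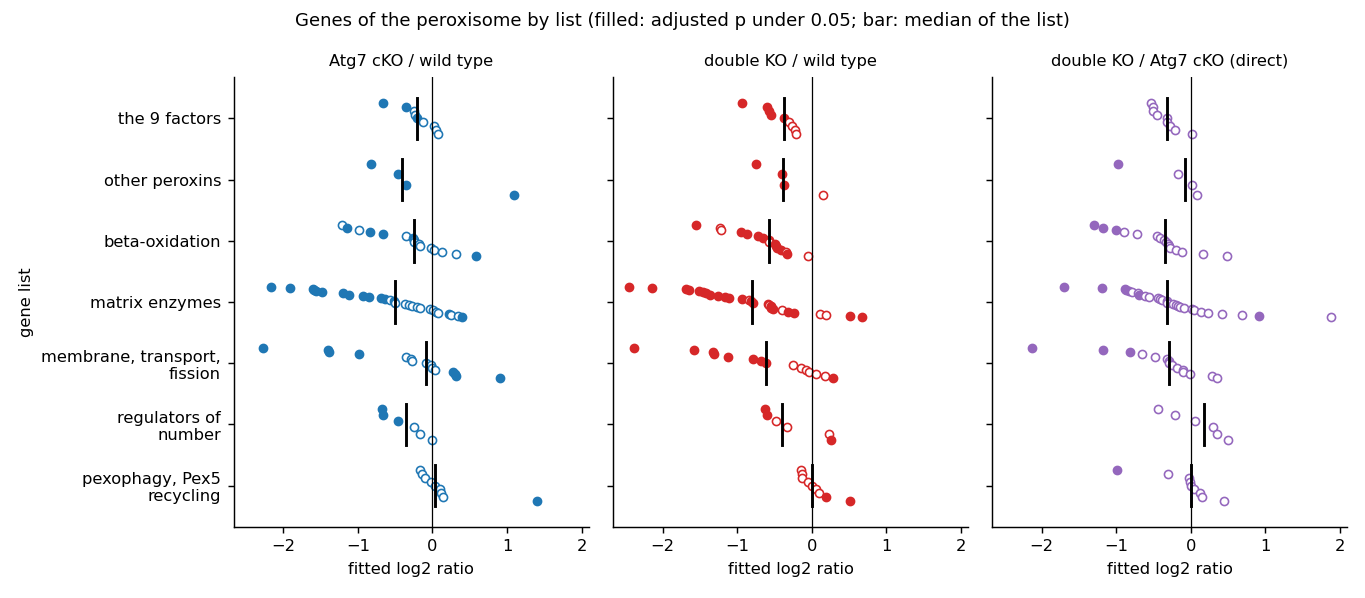
Fitted log2 ratio (x axis) of every tested gene of 7 lists (rows) in Atg7 cKO and the double knockout against wild type and in the direct comparison; filled points have an adjusted p under 0.05 and bars mark the list's median. The 9 factors span -0.67 to 0.076 in Atg7 cKO, and Pex11a stands apart from the other peroxins at 1.09. The direct comparison carries the scanner's own scaling and the others loess.

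By Pearson's correlation over the 8 experiments of the value table, the genes whose pattern was most like that of Pex16 were Ces1d (r = 0.998), a liver carboxylesterase, Shmt1 (r = 0.995), a serine hydroxymethyltransferase, and Surf1 (r = 0.994), an assembly factor of the respiratory chain. Ces1d read -1.61 and -2.06 in the Atg7 cKO experiments, -2.96 and -2.05 in the double knockout and -1.44 and 0.02 in the direct experiments. The points share arrays and scaling, and 875 of 16673 genes had r above 0.9 with Pex16, so a pattern like it was common on these arrays.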

How the data were processed

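Per the file headers, the scanner files of experiments 1 to 6 (12 arrays) give spot intensity as mean signal and median local background, from Agilent Feature Extraction in version 9.5.1.1, which the submitters' processing notes give as 9.5.1, with probes on mm9. The deposited value table gives the authors' log10 ratio for all 16 arrays. Its 12 columns with a scanner file matched that file's log10 ratio of Cy5 over Cy3 within 0.005. Experiments 7 and 8 were read from it, and scanner files of these were not used here.

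Control spots and outlier spots were left out. Signals were corrected with normexp (offset 50) and loess in limma 3.58.1 (R 4.3.3, data.table, version 1.17.8), ratios were turned to knockout over partner on the log2 scale, and dye swaps were averaged. Probes well above background in at least 4 of 24 channels were kept, and the brightest stood for its gene. Of 41174 probes, 24844 were named by accession and 6045 by symbol from RefSeq symbols, and 10285 kept the file's name. Experiments 1 to 6 were fitted together in limma for the ratios to wild type, the contrast through it and the interaction, and all 8 experiments of the value table were fitted for the direct contrast. Groups of a fit share one spread per gene (residual df 3 and 4), which includes the difference between the sets. The labels do not tie arrays to animals, so p-values measure the spread between these experiments. The experiments of each comparison with wild type differed in sex-linked RNA, so their RNA came from different animals. Their spread thus holds differences of animal and sex, and how much of it is technical was not tested. For the direct experiments sex-linked RNA was not examined, and their spread may be technical. The fits were also run on simulated independent noise with few genes changed. Those data differ from the comparisons here, in which many genes were called, so that run does not test these calls. P-values were adjusted by Benjamini-Hochberg over 16674 genes with a threshold of 0.05.

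The 9 genes, the other lists and the tests were chosen with earlier results of these data known. Values are given for all 9 factors and the other peroxins followed, for up to 4 called genes per further list with the largest ratio in Atg7 cKO, for Sqstm1, Nbr1, Ppara and Cat, and for the 3 genes most like the factor with the largest such ratio. Alternatives covered scaling, filters, probe averaging, slide, set and dye terms and leaving out experiments. Some genes of the further lists are not reported here and were left out of their counts. The fit of each probe as its own feature, and the use of all alternatives on the other lists, were added after seeing the data.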

Additional observations from a re-analysis of the deposited data

How the results depend on the processing

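The labels share no replicate number between comparisons. Experiments 1 to 3 and 4 to 6, each of which holds every comparison with wild type once, were fitted as a block (the set block), which gave 4 factors called in Atg7 cKO (Pex6 added, adjusted p = 0.0416) and 7 in the double knockout (Pex3 and Pex13 added, adjusted p = 0.034 and 0.00799). Over the 9 factors and the alternatives run, median centring turned the sign of called values in Atg7 cKO, for Pex5 (0.095) and Pex14 (0.243). Leaving out one experiment at a time gave 0 to 4 factors called in Atg7 cKO, 3 to 9 in the double knockout and 0 in Nrf2 KO, the interaction and the direct comparison, and 0 to 2, 3205 to 5950, 2850 to 6230, 2 to 63 and 307 to 1210 genes called in Nrf2 KO, Atg7 cKO, the double knockout, the interaction and the direct comparison. Median centring left 2 factors called in the double knockout, and gave 0 genes called in Nrf2 KO and 66 in the interaction. Arrays fitted singly, with a dye effect and the experiment as a random block, gave 9 factors in the double knockout, 1 in the interaction (Pex7, adjusted p = 0.0237) and 5 in the direct comparison (Pex3, Pex7, Pex13, Pex14 and Pex19), and 91, 1208 and 4280 genes called in Nrf2 KO, the interaction and the direct comparison. That fit leans on arrays of one dye swap as partly separate samples. In Nrf2 KO 1 gene was called with no filter, 4 with the slide as a block and 11 with the set as a block. For the interaction the counts were 6 with processed signals, 0 with the slide block and 329 with the set block. In the direct comparison 2 factors (Pex14 and Pex19) were called among probes well above background in all channels, 107 genes from experiments 7 and 8 alone and 827 through wild type. The causes of these shifts were not tested. Dim probes, such as those of Pex10 and the second Pex3 and Pex13 probes, are limited by signal over background.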

Other observations

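Outside the rule for named genes, and chosen after its values were seen, Slc25a17 went the way of Pex11a. This carrier of cofactors in the peroxisomal membrane rose by 0.90 in Atg7 cKO (adjusted p = 0.00443), read -0.25 in the double knockout (adjusted p = 0.163) and fell by 1.18 in the direct comparison (adjusted p = 0.00665). The direct experiments read -1.115 and -1.251, and the gene missed the threshold there without experiment 7. Its interaction was -0.94 and did not pass (adjusted p = 0.149).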
